A study of Mus musculus with 6 samples.

Results

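The genes described here are 44 mouse genes of glycolysis and of the cell's response to low oxygen, taken as listed, from glucose entry to lactate release, together with the hypoxia-inducible factor (HIF) subunits, their prolyl hydroxylases and well-known HIF targets. All 44 were found, by gene symbol, among the 25043 genes of the deposited RNA-seq table. The libraries came from mouse embryonic fibroblasts (MEFs), connective tissue cells grown from embryos, of 2 genotypes, with 3 WT and 3 Anp32e null libraries. Anp32e is a histone chaperone that takes the variant histone H2A.Z out of chromatin, and the cells are primary MEFs from WT and Anp32e-/- embryos that another laboratory donated.

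Both genotypes were grown in the same medium (DMEM with fetal bovine serum), kept below passage 8 and plated at 200000 cells per dish the day before RNA was taken. The labels name no drug, no oxygen level and no age or strain of the embryos, and do not say whether the 3 libraries of a genotype came from separate embryos or cultures. RNA was sequenced as stranded total RNA. The 1 number per transcript used here is the authors' mean over all 6 libraries of read counts divided by each library's size factor, which corrects for depth, and it pools WT with Anp32e null. Levels below are therefore levels of these fibroblasts as a whole. They carry no error between replicates, and no difference between the genotypes is given. The pooled mean of Anp32e itself was 2190 normalized counts, which cannot check the knockout in any single library.

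Glycolysis splits glucose into pyruvate in the cytosol, and lactate dehydrogenase turns pyruvate into lactate when it is not passed to the mitochondria. When oxygen is low, the prolyl hydroxylases that mark the HIF alpha subunits for destruction slow down, the alpha subunits pair with Arnt, and the pair switches on genes that hold its binding core, ACGTG or GCGTG. Most steps of glycolysis have several paralogs, one of which often leads in a given tissue, and fibroblasts in culture are known for high glycolysis even with oxygen present.

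The binding core is shown first, because it is the sequence feature that the HIF targets among these genes would share. RefSeq promoter windows on GRCm38.p6 (mouse mm10), each from 250 bases before to 50 bases after an annotated start, were held for 39 of the 44 genes, and none for Slc2a3, Slc2a4, Epas1, Bnip3l or Ndrg1. ACGTG or GCGTG, searched on both strands, was present in at least 1 window of 36 of these 39 genes (92.3%), against 46.7% of all 27025 genes with a window and 66.7% of the 11131 genes whose mean was at least 10 normalized counts. ACGTG alone was present in 26 of the 39 (66.7%), against 21.8% of all genes and 29.2% of those with a mean of at least 10. Counted by window, since a gene with several starts has more chances to hold a core, 44 of 54 member windows (81.5%) held either core against 43.8% of all 32851 windows. The share by window was not taken for genes with a mean of at least 10, so this contrast is with all genes only. Median GC content was 61.7% in the member windows, 60.7% in the windows of genes with a mean of at least 10 and 52.7% in all windows. These shares are descriptions of letters in a window, not of bound sites.

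Ldha, which encodes the main lactate-forming subunit, held 3 stretches with the core in chr7:46845554-46845803 (plus strand). These are the 250 bases before the first of its starts that had a window, and the annotated gene begins upstream, at 46842274. Its other window held GCGTG but no ACGTG. Pgk1, the first ATP-yielding enzyme of the pathway, held 2 stretches in chrX:106186850-106187099 (plus strand). With an E box (CACGTG) counted as 2, 14 of the 39 genes held 2 or more ACGTG in 1 window. Ldha and Pgk1 are printed 5′ to 3′ as examples of repeated cores. Capitals mark ACGTG or its reverse complement CACGT, and in 2 places in Ldha these overlap as CACGTG, the E box that other factors also read.
Ldha: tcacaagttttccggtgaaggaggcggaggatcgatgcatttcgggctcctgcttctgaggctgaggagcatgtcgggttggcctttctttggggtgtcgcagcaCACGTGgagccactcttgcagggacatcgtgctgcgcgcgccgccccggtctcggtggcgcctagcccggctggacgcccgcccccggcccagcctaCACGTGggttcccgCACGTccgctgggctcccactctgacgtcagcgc
Pgk1: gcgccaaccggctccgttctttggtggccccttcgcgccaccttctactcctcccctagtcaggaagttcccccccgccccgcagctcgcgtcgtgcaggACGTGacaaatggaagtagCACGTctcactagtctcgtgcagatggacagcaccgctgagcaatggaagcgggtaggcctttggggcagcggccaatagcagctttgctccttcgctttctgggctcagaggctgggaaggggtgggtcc

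Shorter windows follow as examples from several steps. The first are a glucose transporter (Slc2a1, chr4:119108694-119108728, plus strand), a hexokinase (Hk2, chr6:82774487-82774521, minus strand) and an aldolase (Aldoa, chr7:126799361-126799395, minus strand). The others are the HIF prolyl hydroxylases among the members (Egln1, chr8:124949303-124949337, and Egln3, chr12:54204084-54204118, minus strand) and a carbonic anhydrase (Car9, chr4:43506993-43507025, plus strand).
Slc2a1: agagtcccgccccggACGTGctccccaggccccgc
Hk2: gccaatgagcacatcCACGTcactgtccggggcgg
Aldoa: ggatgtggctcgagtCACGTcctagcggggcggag
Egln1: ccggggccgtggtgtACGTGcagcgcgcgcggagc
Egln3: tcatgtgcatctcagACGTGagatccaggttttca
Car9: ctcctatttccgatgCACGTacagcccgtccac

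The ACGTG shown began 36 bases before the start in Slc2a1, 52 in Hk2, which held another at 226, 68 in Egln1, 229 in Egln3 and 18 in Car9. In Aldoa the same stretch lay 126 or 202 bases before, depending on which annotated start is counted. CACGTG was found in 7 of the 39 genes (17.9%, against 8.09% of all genes and 11.6% of those with a mean of at least 10), namely Bnip3, Hif1a, Ldha, Pdk2, Pfkfb3, Pfkm and Slc16a1. In Hk1, Aldoc and Gapdh every ACGTG lay after the start.

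**Figure D1:**
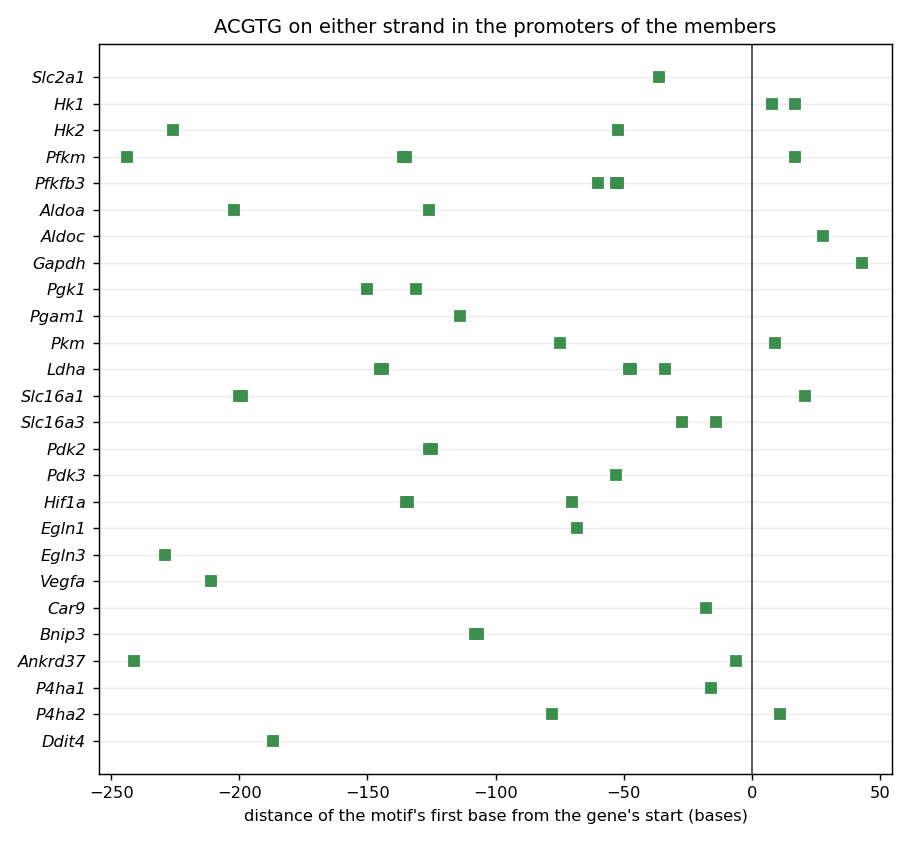
Each square is 1 ACGTG, on either strand, in the promoter windows of the 26 members that held it. Its place is the distance of its first base from the annotated start of its window, in bases. Squares lie on both sides of 0, and pairs that touch are E boxes read on both strands.

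Against the other genes of the table, this set was well expressed. A mean of at least 10 normalized counts was reached by 43 of the 44 genes, against 56.9% of all genes. Slc2a4, the insulin-responsive glucose transporter of muscle and fat, fell below it at 7.79. To compare genes with each other, each mean was divided by the length of its transcript in kb. On that scale the median of the 44 was 862 normalized counts per kb, against 349 over the 13974 genes that had a length and a mean of at least 10. Of the 43, 31 lay above the median of those genes and 12 below. The set was far from uniform, running from 2.76 per kb for Epas1 to 88505 for Pkm.

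**Figure D2:**
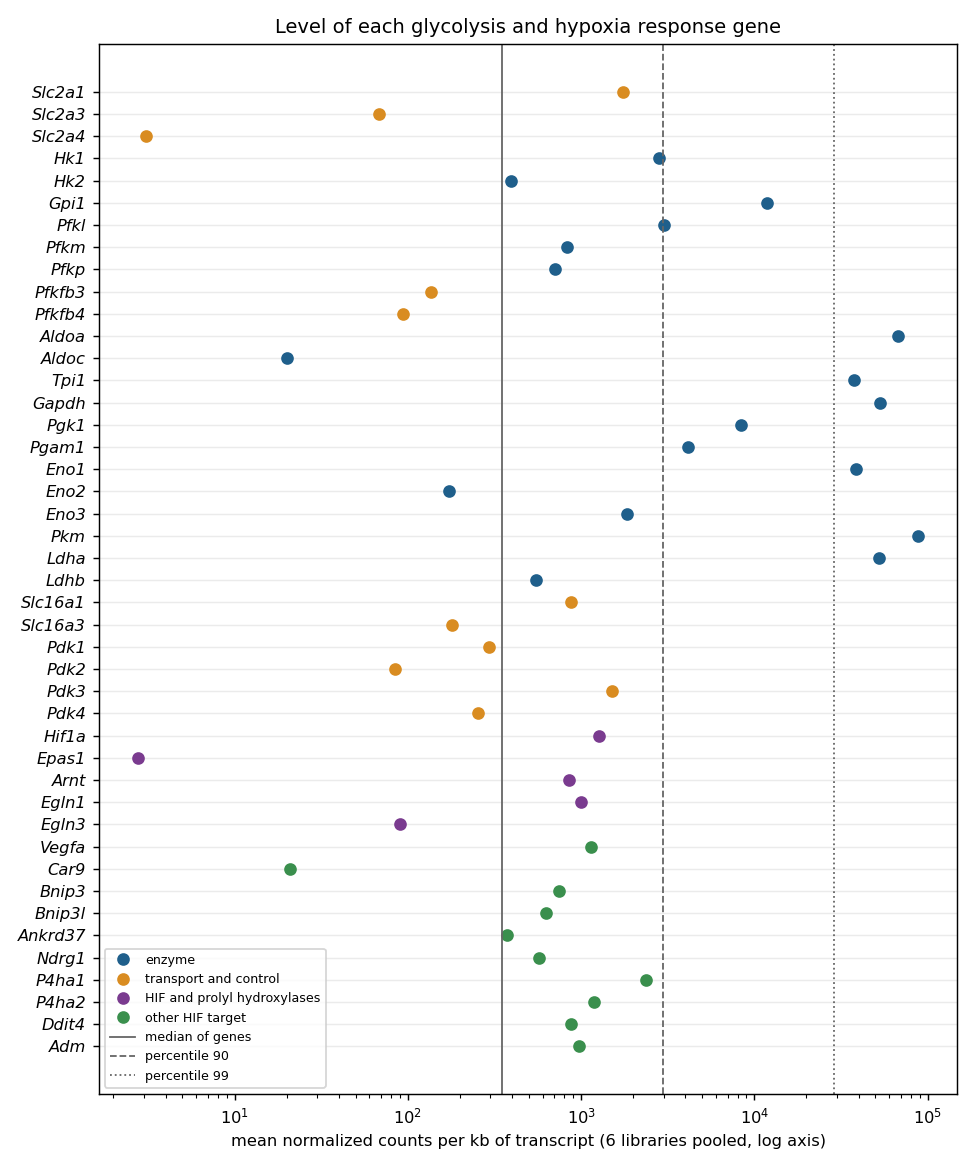
Mean normalized counts per kb of transcript on a log axis for each of the 44 genes, in pathway order from glucose entry to lactate and then the HIF system, with colours for 4 kinds of gene. Vertical lines stand at the median (349), percentile 90 (2982) and percentile 99 (28665) of all genes with a mean of at least 10, and 6 enzymes lie past the last line.

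Much of the height of the set came from the enzymes that carry glucose to lactate. These 18 genes had a median of 3577 per kb, 10 of them lay above percentile 90 of all genes, and together they held 1.39% of the summed means of the table. Genes of the hexokinase and phosphofructokinase steps were lower than most of those that follow. Hexokinases trap glucose in the cell as glucose 6-phosphate, and Hk1 had a mean of 12003 normalized counts (2806 per kb) and Hk2, the form known as a HIF target, 2183 (396 per kb). Gpi1, which makes fructose 6-phosphate, followed at 34182 (11852 per kb). Phosphofructokinase is the main point of control in the pathway, and its 3 genes had means of 11257 (Pfkl), 2338 (Pfkm) and 2923 (Pfkp), or 3012, 830 and 705 per kb.

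The leading gene of every step lay above percentile 90 except at hexokinase, where Hk1 was just short at percentile 89.2. This exception depends on the transcript, since Hk1 stood at 3102 per kb with its transcript of highest mean per kb. The percentile 90 level was 2982 per kb. Gpi1 was at percentile 97.5 and Pfkl at 90.1. Aldoa, which splits the 6-carbon sugar, had 104331 normalized counts (67354 per kb), and Aldoc, the form known from brain, had 55.8 (20.0 per kb). Triose phosphate isomerase, Tpi1, interconverts the 3-carbon products and had 60096 (37397 per kb). Gapdh, which takes the first electrons from the pathway and is often used as a reference gene, had 67435 (52974 per kb). The next steps dipped, with 15380 for Pgk1 (8427 per kb) and 7351 for the mutase Pgam1 (4141 per kb). Enolase makes phosphoenolpyruvate, and Eno1 had 78436 (38696 per kb), the muscle form Eno3 2896 (1852 per kb) and the neuronal form Eno2 487 (173 per kb).

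Pyruvate kinase Pkm, which makes pyruvate and ATP, was the highest member at 215244 normalized counts. Its 88505 per kb placed it at rank 33 among the 13974 genes (percentile 99.8). Ldha followed with 94714 (52184 per kb), and Ldhb, the form known to favour the return to pyruvate, had 715 (548 per kb). Thus Pkm, Aldoa, Gapdh, Ldha, Eno1 and Tpi1 all lay above percentile 99, while Aldoc and Eno2 lay below the median.

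**Figure D3:**
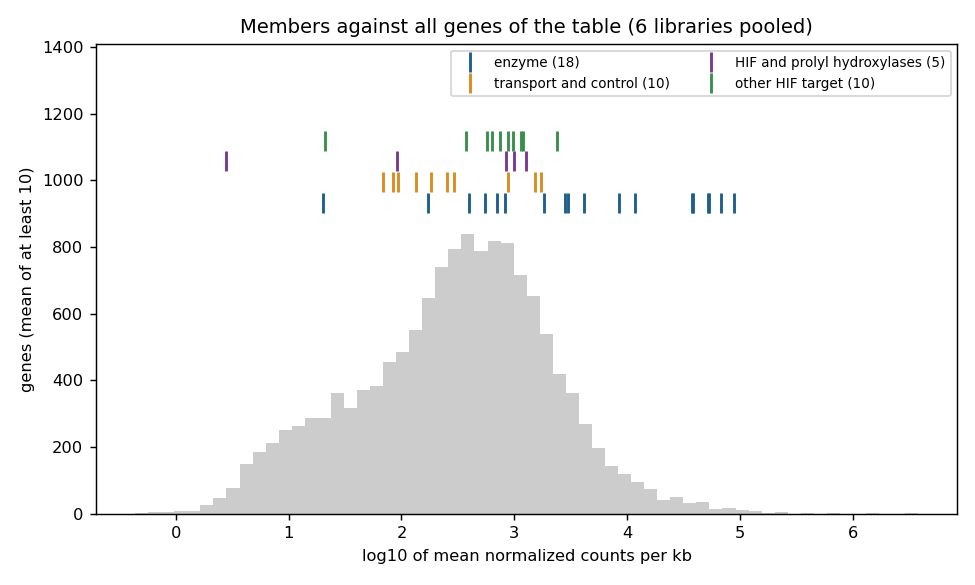
The grey bars count genes of the table with a mean of at least 10 by the log10 of their normalized counts per kb, and each coloured tick is 1 of the 43 members that reached that mean. Enzyme ticks reach into the right tail, while 7 of 10 ticks for transport and control lie below the median of 349 per kb.

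By their median, the genes that bring glucose in, let lactate out and steer the flow were lower than the enzymes that carry glucose to lactate. Single genes overlapped. The 11 transport and control genes had a median of 181 per kb, and none lay above percentile 90. Of the 10 that reached a mean of 10, 7 were below the median of all genes. Slc2a1, the basal glucose transporter, was the highest at 5678 normalized counts (1742 per kb), and Slc2a3, a high-affinity transporter, had 270 (68.2 per kb). Pfkfb3 and Pfkfb4 make and break fructose 2,6-bisphosphate, the activator of phosphofructokinase, and had 646 and 327 (136 and 93.4 per kb). Pfkfb3 fell below the median of 349 per kb here, but stood at 417 with its transcript of highest mean per kb.

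Monocarboxylate transporters carry lactate across the membrane. Slc16a1 had 3882 normalized counts (877 per kb) and Slc16a3, the form of highly glycolytic cells, had 785 (181 per kb). Pyruvate dehydrogenase kinases hold pyruvate back from the mitochondria, and all 4 were detected. Pdk3 led with 3211 (1518 per kb), ahead of Pdk1, the classical HIF target, with 1527 (295 per kb), Pdk4 with 887 (254 per kb) and Pdk2 with 189 (84.2 per kb).

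Among the regulators, Hif1a was present and Epas1 was almost absent. Hif1a, the alpha subunit that serves most cells, had 5999 normalized counts (1270 per kb), and its partner Arnt had 2298 (851 per kb). Epas1, which encodes HIF-2 alpha and is known best from endothelium, had 15.2 (2.76 per kb), the lowest per kb of all members and at percentile 0.666. Hif1a was thus 460-fold above Epas1 per kb. Of the prolyl hydroxylases, Egln1, the main oxygen sensor, had 3570 (993 per kb), and Egln3, itself a strong HIF target, had 241 (90.6 per kb). Hif1a protein is controlled mostly by its breakdown, so mRNA levels do not measure its activity.

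The 10 members grouped as other HIF targets ran from percentile 12.0 (Car9) to percentile 87.4 (P4ha1). Of these 10 genes, 9 lay above the median of all genes and none above percentile 90, with a median of 810 per kb. This count leaves out HIF targets placed in other groups above, such as Hk2 (percentile 53.0), Pdk1 (46.4) and Egln3 (26.6). HIF targets outside the members, described below, had a median percentile of 54.2 among those with a mean of at least 10. P4ha1 and P4ha2, which hydroxylate prolines of collagen, led with 6950 and 2652 normalized counts (2382 and 1189 per kb). Vegfa, the growth factor for blood vessels, had 2263 (1147 per kb, over 1973 bases). Other Vegfa transcripts had 2263 over 654 bases and 2247 over 3451 bases, so its percentile and its place among these genes depend on the transcript used. The vasodilator peptide gene Adm had 1356 (976 per kb). The mitophagy receptors Bnip3 and Bnip3l had 1312 and 2035 (747 and 628 per kb). Ddit4, an inhibitor of mTORC1, had 1533 (873 per kb), the stress-responsive gene Ndrg1 had 1655 (573 per kb), and Ankrd37 had 344 (372 per kb). Car9, a carbonic anhydrase that is a common marker of hypoxic cells, stood apart at 42.3 (20.9 per kb), at percentile 12.0.

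In 13 families of paralogs the share of the leading gene, on the scale per kb, ran from 54.3% to almost the whole. Aldoa held 99.97% of the aldolase level, Hif1a 99.8% of the alpha subunits, Ldha 98.96% of the lactate dehydrogenases, Slc2a1 96.1% of the glucose transporters and Eno1 95.03% of the enolases. Among the members compared, these 5 families were each served almost wholly by 1 gene. Shares cover members alone, and some genes outside the set were picked out after their values were seen. These stood at 156 per kb (Slc2a8), 89.9 (Slc2a6) and 83.4 (Slc2a10), each above Slc2a3, and at 167 (Pfkfb1) and 125 (Pfkfb2). Pfkfb1 was above Pfkfb3 only through the long transcript used for Pfkfb3, which stood at 417 with its transcript of highest mean per kb. Without division by length Pfkfb3 had 646 normalized counts and Pfkfb1 290. Egln1 held 91.6% of the pair with Egln3, Hk1 87.6% of the hexokinases and Slc16a1 82.9% of the monocarboxylate transporters. Shares were more even for Pdk3 (70.6%), P4ha1 (66.7%), Pfkl (66.2%), Pfkfb3 (59.2%) and Bnip3 (54.3%).

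In fold terms, Ldha exceeded Ldhb 95.2-fold, Slc2a1 exceeded Slc2a3 25.5-fold and Hk1 exceeded Hk2 7.09-fold. The smallest leads were 1.19-fold for Bnip3 over Bnip3l and 1.45-fold for Pfkfb3 over Pfkfb4, which became 4.46-fold with the transcript of highest mean per kb, since the transcripts of Pfkfb3 differ widely in length at near-equal means. The order of Bnip3 and Bnip3l depends on the length used, since Bnip3l led 1.33-fold per kb of coding sequence and 1.55-fold without division by length. Pfkm led Pfkp only on the scale used here, and Pfkp was the higher per kb of coding sequence, without division by length and with the transcript that has the highest mean per kb. With no values per replicate, none of these orders could be set against the spread between libraries.

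**Figure D4:**
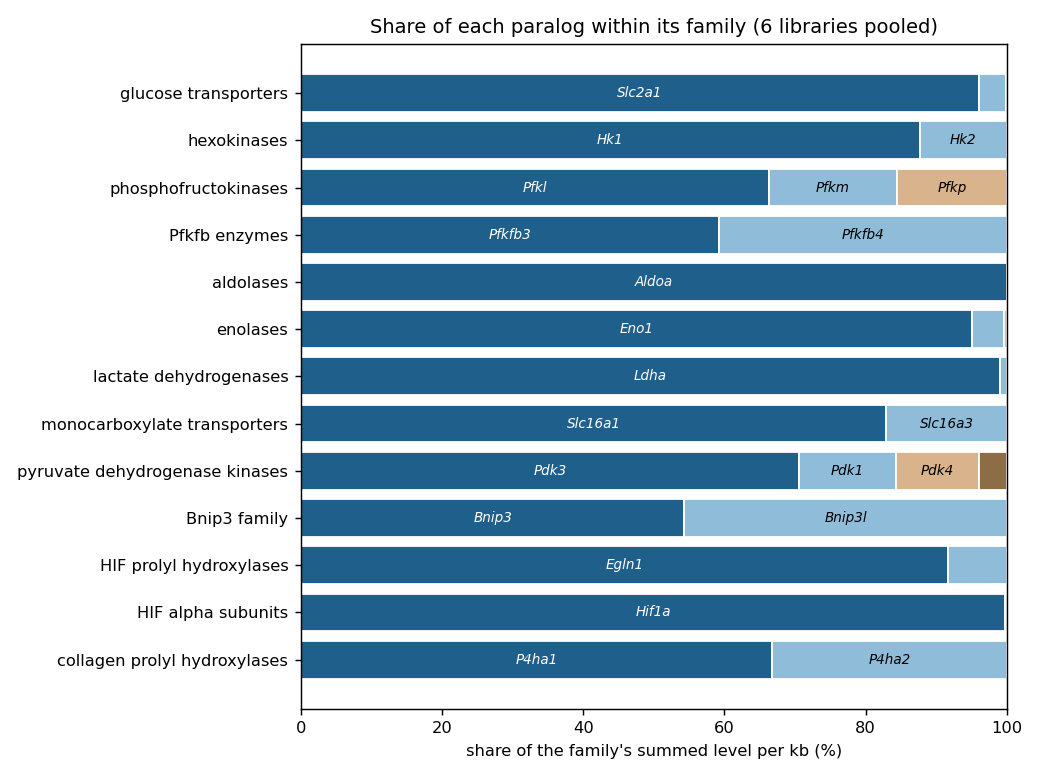
Horizontal bars, from 0 to 100%, show how the summed level per kb of each of 13 families divides among its member genes, leading gene first from the left. The darkest segment fills nearly the whole bar for Aldoa (99.97%) and Hif1a (99.8%) and little over the middle for Bnip3 (54.3%), and segments under 9% carry no name.

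The table lists transcripts rather than genes, with 93 for the 44 members. Of the 24 members with more than 1 transcript, 21 had a lowest transcript at 95% or more of the highest. Such near-identity is what a read counted for every transcript it overlaps would give, so transcript means are not read as isoform shares. Pkm shows it well. Its M2 transcript (NM_011099), which holds the exon at chr9:59675568-59675734, had a mean of 215244 normalized counts, and the M1 transcript (NM_001253883), with the exon of equal length at chr9:59675029-59675195, had 213633. The 2 transcripts differed by 1611, but their models also differ at the ends, so this is not the difference between the exons.

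The other 3 members with unequal transcripts were Vegfa, Eno2 and Egln1. In Vegfa 3 of the transcripts (NM_001110266, NM_001110267 and NM_001110268) had means of 1499, 1483 and 1448 against 2263 for the highest, or 66.3%, 65.5% and 64.0% of it. Eno2 had 435 in its lowest transcript against 487 in its highest. Egln1 had 3278 against 3570. Reads that match a gene and its near-identical copies can also be lost or split. The copies listed here had 2.98 normalized counts (Eno1b), 7.32 (Aldoart1) and 0.993 (Aldoart2). Low means of copies do not show how many reads were lost, and copies of other members were not looked at.

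For the 4 lowest members the mean could be taken apart into whole reads. The smallest means of the table are those of single reads in each library, which gave 6 size factors of 1.13, 1.05, 1.03, 0.987, 0.936 and 0.909. All 2553 distinct means under 5 matched exactly 1 set of whole reads. Each of the means of these 4 members was also given by exactly 1 set. The column of means does not name the libraries and the authors' comparison was not used to assign them, so they are given by size factor alone, in the order above, with no genotype.

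Slc2a4 had 9, 8, 5, 10, 10 and 5 reads, or 4.87 to 10.7 normalized counts. Epas1 had 25, 24, 4, 28, 7 and 6 reads, or 3.89 to 28.4 normalized counts. Every library held reads of both genes, and Epas1 varied the more, by 7.29-fold between lowest and highest against 2.20-fold. Car9 had 47, 49, 37, 49, 40 and 34 reads, or 36.0 to 49.6 normalized counts, a 1.38-fold range. Aldoc had 45, 41, 65, 54, 60 and 67 reads, or 39.0 to 73.7 normalized counts, a 1.89-fold range. Car9 had the narrowest range of the 4, but total reads ran from 47 for Slc2a4 to 332 for Aldoc. Low counts scatter more, so these ranges do not rank the genes by steadiness. No test was made on these libraries.

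**Figure D5:**
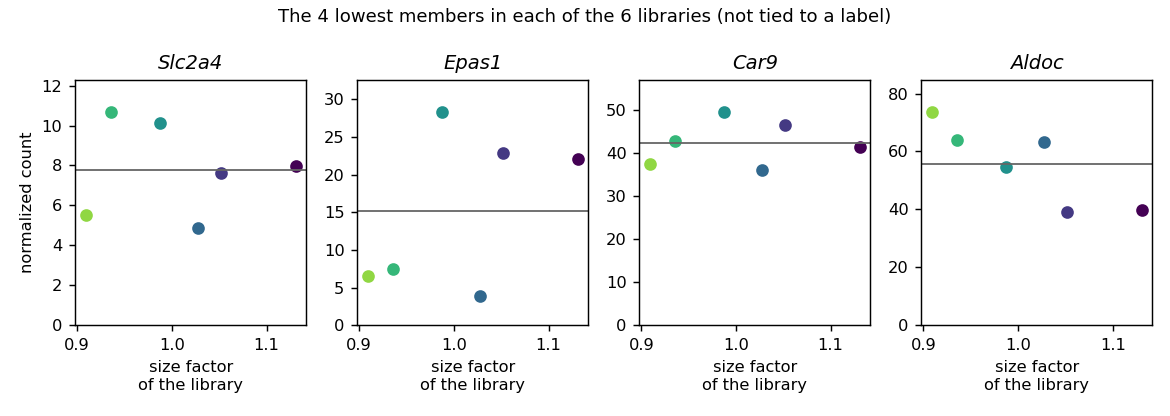
Each panel shows 1 of the 4 lowest members, with the normalized count in each of the 6 libraries against that library's size factor, darker points for larger factors and a line at the authors' mean. Epas1 spans 3.89 to 28.4, while Car9 stays between 36.0 and 49.6.

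Genes around the set in the same pathways were read in the same way. Of 20 other isozymes of glycolysis and glucose synthesis, 9 had a mean of 10 or more. The highest were Pck2 (810 per kb), which makes phosphoenolpyruvate in mitochondria, and the phosphatase gene G6pc3 (766 per kb), and the testis form Pgk2 and the liver and kidney gene Pck1 were at 0. Next to the member transporters, 9 of 13 reached that mean, led by Bsg (27851 per kb), the partner that brings Slc16a1 to the membrane, and the mitochondrial pyruvate carrier Mpc2 (1469 per kb), with Slc2a2 (0.0849 per kb) and Slc2a5 (0.621 per kb) lowest.

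The pyruvate dehydrogenase complex, which the Pdk kinases inhibit, had 7 of 8 genes at that mean. Its highest were Pdha1 (4169 per kb) and Pdhb (1903 per kb), and its lowest were the testis form Pdha2 (0.0674 per kb) and the phosphatase Pdp2 (88.5 per kb). The pentose phosphate pathway, which draws on the glucose 6-phosphate made by Hk1 and Hk2, had all 7 of its genes there, from Taldo1 (8966 per kb) and Tkt (8678 per kb) down to Rpe (771 per kb) and Rpia (676 per kb).

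Oxygen sensing beyond the members had 8 of 9 genes there, with Elob (20634 per kb) and Eloc (5834 per kb), adaptors of the ligase that removes Hif1a, highest and Arnt2 (73.1 per kb) and Hif3a (0.169 per kb) lowest. Egln2, a prolyl hydroxylase outside the member set that was picked out after its value was seen, stood at 2531 per kb, above Egln1 and Egln3. Other HIF targets reached that mean in 20 of 21 cases. Mif (68874 per kb) and Fam162a (6660 per kb) were highest, and Rora (23.6 per kb) and the erythropoietin gene Epo (0.236 per kb) were lowest.

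The label of the cells was read against marker genes. A mean of 10 or more, which 56.9% of all genes had, was reached by 13 of 14 fibroblast markers, and Lum was near 0 at 1.33. The median percentile of these 13 was 87.5. Vim was high with 330695 normalized counts, while Pdgfra (percentile 26.8) and Dcn (percentile 25.3) were lowest. Markers of mesothelium were at that mean in 5 of 5, from 300 (Wt1) to 7400 (Krt19) normalized counts, those of epithelium in 4 of 7, endothelium in 2 of 5 (Kdr 2958, Emcn at 0), macrophages in 2 of 5, skeletal muscle in 2 of 5 (Myod1 at 0), the erythroid lineage in 1 of 3 and fat in 0 of 3. In such bulk samples fewer cells of a type and less RNA per cell cannot be told apart, and the part of other cells in any member's level was not tested.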

How the data were processed

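Reads were mapped by the authors with STAR on mm10, counted per RefSeq transcript with featureCounts and normalized with DESeq2 (submitters' notes and methods). The deposited table holds 1 signal per transcript that was used, the authors' mean over all 6 libraries of counts divided by size factors. Its other columns hold the authors' own comparison of the genotypes (fold change, its error and p-values) and were not used. It has no values per library, so the planned count test could not be run, total depth is unknown and no error is given.

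Of 42361 transcripts, 42203 were matched to a gene symbol through RefSeq and 158 were not. A gene took its transcript with the highest mean (the longest among ties). Per kb values used the summed exon length of the paired GENCODE vM21 transcript (GRCm38), which may differ from the RefSeq model at its ends. For 3 members (Pfkl, Pfkfb4 and Eno2) the highest transcript had no pair and the next with a length was used. A mean of 10 was the minimum for comparison with other genes. Every member is named. Of each list of pathway neighbours, the 2 highest and 2 lowest per kb and those at 0 are named, as is each listed copy, and a few list genes are not reported here. Members and lists were chosen with earlier results of these data known. Recovery of whole reads was tested on simulated data. Python 3.11.15, numpy 2.4.6, pandas 2.3.3 and matplotlib 3.10.9 were used.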

Additional observations from a re-analysis of the deposited data

How the results depend on the processing

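The median level of the 44 genes was 862 normalized counts per kb. It moved to 875 when each gene was represented by the transcript with the highest mean per kb, and to 775 with the longest transcript that had reads, and it stayed at 862 with coding transcripts alone. Their median percentile was 70.3 among genes with a mean of at least 10, 70.2 among autosomal genes and 77.9 among all genes with a mean above 0. The number of members at the minimum mean was 44 at a minimum of 1, 41 at a minimum of 50 and 44 with none. The leading gene was kept in 12 of 13 families under coding length and without division by length, Bnip3 being the exception both times, and in 13 with the highest mean per kb. Members with either HIF core numbered 36 in the whole window and 36 before the start, and 26 with ACGTG alone.

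The planned comparison of WT with Anp32e null, and with it leaving out each replicate, the other scaling and the removal of the filter, was not run, because the table used holds no values per library by genotype. No paired analysis was possible because the column used is a mean over all 6 libraries and carries no replicate number. Of the 4 members whose reads were recovered, Epas1 and Slc2a4 had as few as 4 and 5 reads in a library, which limits their values.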

Other observations

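Over the 6 libraries, which were not assigned to a genotype here, the normalized counts of Epas1 were 22.1, 22.8, 3.89, 28.4, 7.48 and 6.60 in order of falling size factor, with a wide gap between the 3 lower and the 3 higher values. In the same order those of Aldoc were 39.8, 39.0, 63.3, 54.7, 64.1 and 73.7, so the 3 libraries with the highest Epas1 values held the 3 lowest Aldoc values. Slc2a4 had 7.96, 7.61, 4.87, 10.1, 10.7 and 5.50, and Car9 had 41.6, 46.6, 36.0, 49.6, 42.8 and 37.4, with no gap as wide in either. These genes were looked at because their means were low enough to be taken apart. The division into 3 and 3 libraries and the pair Epas1 and Aldoc were picked out after the values were seen, and no test was made.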
